A study of Glycine max with 4 samples.

Results

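A set of 8 soybean genes in common use as internal references for quantitative PCR was followed through 4 RNA-seq libraries, to ask how steady each stays between leaf genotypes and between shoot tissues. They were taken by identifier from the deposited tables, and 8 of 8 were found among 69145 genes. The set comprises the cytoskeleton genes ACT11 (Glyma18g52780), TUA5 (Glyma05g29000) and TUB4 (Glyma03g27970), the translation and folding genes ELF1B (Glyma02g44460) and CYP2 (Glyma12g02790), and the protein turnover and transport genes SKIP16 (Glyma12g05510), metalloprotease (Glyma03g29350) and ABC transporter (Glyma12g02310). The names are those under which the identifiers serve as references. The tables themselves carry no names, 0 of the 8 identifiers matched the RefSeq gene table, and no sequence was used to check them.

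Quantitative PCR reports the level of a gene relative to another gene measured in the same RNA. The choice of that reference enters every result, because any difference in the reference is passed, with its sign turned, to the gene of interest. Genes for basic cell functions are therefore favoured, such as parts of the cytoskeleton, of the ribosome's helpers or of protein turnover. Actin and tubulins are nevertheless tied to growth, since dividing and expanding cells build microfilaments and microtubules, and translation factors are abundant in young tissue.

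The libraries came from Clark five-foliate, a mutant named for its additional leaflets, and from its isoline Clark standard, the wild type with leaves of the usual form. Vegetative buds and young shoot tips were cut from several greenhouse plants per harvest at 4 weeks of age under favourable growth conditions, and total RNA was sequenced. Each of the 4 combinations (five-foliate bud, standard bud, five-foliate shoot tip and standard shoot tip) had 1 library. No difference between 2 libraries could be set against a spread between plants, and no p-value was computed for one. How far several plants stand behind 1 library is not given, and marker genes of the tissues were not analysed here. The totals behind the values were 103618555 alignments for the five-foliate bud, 97532923 for the standard bud, 139769051 for the five-foliate shoot tip and 152791817 for the standard shoot tip. Levels are RPKM, reads scaled by the length of the gene model and the total of the library, so levels of different genes can be compared. All ratios are log2((first RPKM + 1)/(second RPKM + 1)), and folds are ratios of RPKM with 95% exact binomial intervals of the recovered reads, which cover counting error only. Genes were counted past a threshold on the scale of the ratios with the added 1 RPKM, which makes differences of low genes smaller than their RPKM fold.

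The 8 genes spanned levels from 5.98 to 299.3 RPKM. CYP2 was the most abundant in every library, with a mean of 254.8 ± 53.8 RPKM (SD over the 4 libraries, here and below a spread between conditions). TUA5 (138.2 ± 15.1 RPKM), ACT11 (134.9 ± 36.6 RPKM) and TUB4 (122.9 ± 38.8 RPKM) followed, and neighbours in this order differed by less than either SD. ELF1B averaged 37.5 ± 13.6 RPKM. The ABC transporter (22.1 ± 3.42 RPKM) and SKIP16 (17.6 ± 3.62 RPKM) differed by less than the sum of their SDs, and the metalloprotease was the lowest at 8.45 ± 1.66 RPKM. The order was the same in all libraries except among the cytoskeleton genes, where TUA5 was the second of the 8 in both shoot tips and the fourth in both buds. The standard shoot tip held the lowest value of every one of the 8 genes. It was also low over all genes: the median of their log2 levels, each relative to the gene's own mean, was lowest there at -0.31. The share of all genes with their lowest value in this library was not counted.

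**Figure D1:**
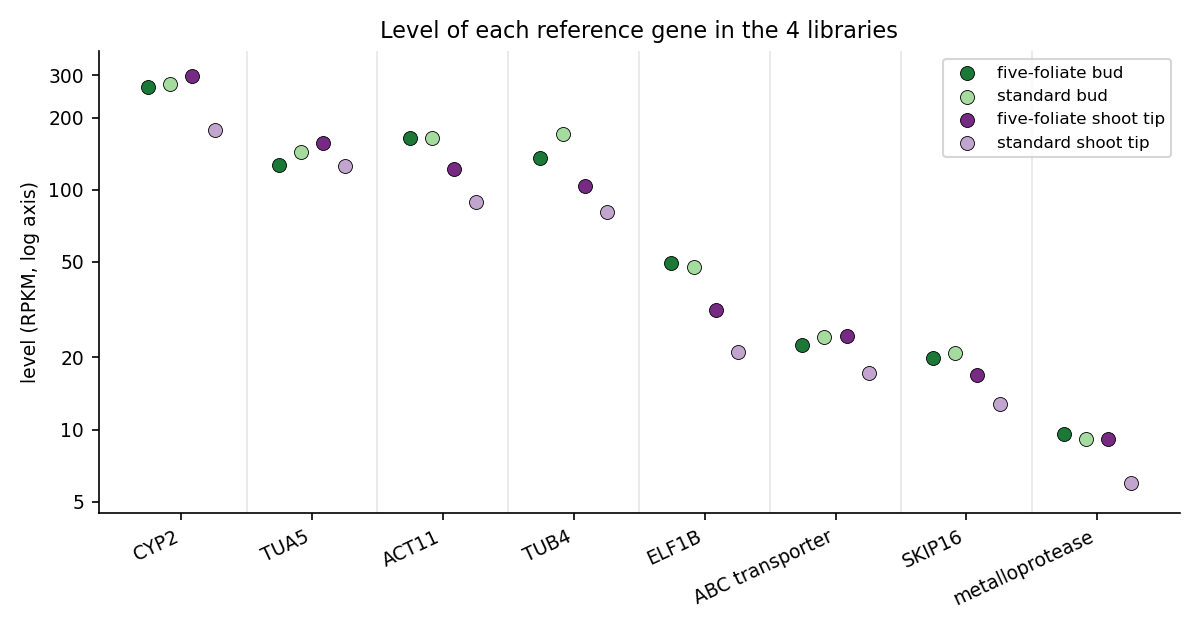
RPKM (vertical log axis) of the 8 reference genes in the 4 libraries, 1 point per library, with genes ordered by mean level from CYP2 (254.8 RPKM) to the metalloprotease (8.45 RPKM). The standard shoot tip, drawn last for each gene, is the lowest point of every gene.

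Among the cytoskeleton genes, ACT11, an actin that forms microfilaments, had 164.8 RPKM in the five-foliate bud, 164.1 RPKM in the standard bud, 121.7 RPKM in the five-foliate shoot tip and 89.1 RPKM in the standard shoot tip. The buds were alike and both lay above both shoot tips. TUB4, a beta-tubulin, had 136.3 RPKM in the five-foliate bud, 170.2 RPKM in the standard bud, 103.9 RPKM in the five-foliate shoot tip and 81.1 RPKM in the standard shoot tip. Its buds also lay above its shoot tips, and its highest library was 2.10-fold above its lowest. TUA5, an alpha-tubulin, had 126.7 RPKM in the five-foliate bud, 143.6 RPKM in the standard bud, 157.0 RPKM in the five-foliate shoot tip and 125.3 RPKM in the standard shoot tip. Tissues and genotypes overlapped for TUA5, whose highest library was 1.25-fold above its lowest. Alpha- and beta-tubulin join in pairs to build microtubules, yet the ratio of these 2 genes was not constant: log2(TUA5/TUB4) was -0.10 in the five-foliate bud, -0.24 in the standard bud, 0.59 in the five-foliate shoot tip and 0.62 in the standard shoot tip.

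In the translation and folding pair, ELF1B, the beta subunit of the elongation factor that renews the nucleotide on the carrier of tRNA to the ribosome, had 49.5 RPKM in the five-foliate bud, 47.8 RPKM in the standard bud, 31.4 RPKM in the five-foliate shoot tip and 21.1 RPKM in the standard shoot tip. Both buds lay above both shoot tips, and the 2.34-fold distance from highest to lowest library was the largest of the 8 genes. CYP2, a cyclophilin that helps proteins fold by turning proline bonds, had 267.3 RPKM in the five-foliate bud, 276.0 RPKM in the standard bud, 299.3 RPKM in the five-foliate shoot tip and 176.8 RPKM in the standard shoot tip. Here the standard shoot tip alone stood apart, below the other libraries.

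SKIP16, an F-box protein of the kind that selects proteins for ubiquitin-dependent breakdown, had 19.98 RPKM in the five-foliate bud, 20.8 RPKM in the standard bud, 16.9 RPKM in the five-foliate shoot tip and 12.8 RPKM in the standard shoot tip. The buds were again above the shoot tips. The metalloprotease, a metal-dependent protein-cutting enzyme, had 9.56 RPKM in the five-foliate bud, 9.18 RPKM in the standard bud, 9.10 RPKM in the five-foliate shoot tip and 5.98 RPKM in the standard shoot tip. The ABC transporter, named for the ATP-binding cassette that powers transport across membranes, had 22.6 RPKM in the five-foliate bud, 24.3 RPKM in the standard bud, 24.5 RPKM in the five-foliate shoot tip and 17.1 RPKM in the standard shoot tip. For both of these genes the libraries other than the standard shoot tip lay close together. In bulk tissue, fewer cells with a transcript and less of it per cell cannot be told apart.

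In the bud, the 8 genes differed little between five-foliate and standard. The five-foliate level was above the standard level for 3 and below it for 5, where 31.1% of all genes were above. The median log2 ratio of the 8 was -0.05, and the median of all 38332 genes that reached 1 RPKM in one or both bud libraries was -0.06. TUB4 had the lowest ratio, at 0.801 times the standard level (interval 0.788 to 0.814), followed by TUA5 at 0.882 times (interval 0.866 to 0.898). TUB4 was the only one of the 8 outside the middle 80% of all genes, which ran from -0.25 to 0.15. For ACT11, ELF1B and SKIP16 the interval included a fold of 1. With ratios centred, that is with the median of all genes taken off, CYP2 (0.02) and SKIP16 (0.01) changed from lower to slightly higher. At a 2-fold threshold 0 of 8 genes differed, where 0.916% of all genes did.

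In the shoot tip, all 8 genes were higher in the five-foliate than in the standard library, as were 74.8% of all 36537 genes passing the filter. Their log2 ratios ran from 0.32 (TUA5) to 0.76 (CYP2), with a median of 0.47, against a median of 0.34 over all genes. CYP2 was 1.69-fold higher (interval 1.67 to 1.72), the metalloprotease 1.52-fold higher (1.47 to 1.58) and ELF1B 1.49-fold higher (1.43 to 1.55). TUA5 and TUB4 were 1.25-fold and 1.28-fold higher. After centring, CYP2 kept a log2 ratio of 0.42, the other genes lay between -0.02 and 0.21, and TUA5 was the one gene whose sign turned. Upper-quartile scaling turned TUA5 (-0.06) and TUB4 (-0.02). None of the 8 reached 2-fold, where 12.3% of all genes did, and only CYP2 reached 1.5-fold higher on the log2(RPKM + 1) scale, where 27% of all genes did. The metalloprotease, at 1.52-fold in RPKM, stayed below that threshold with a log2 ratio of 0.53. Of the 8, 7 lay within the middle 50% of all genes, which ran from -0.01 to 0.61.

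**Figure D2:**
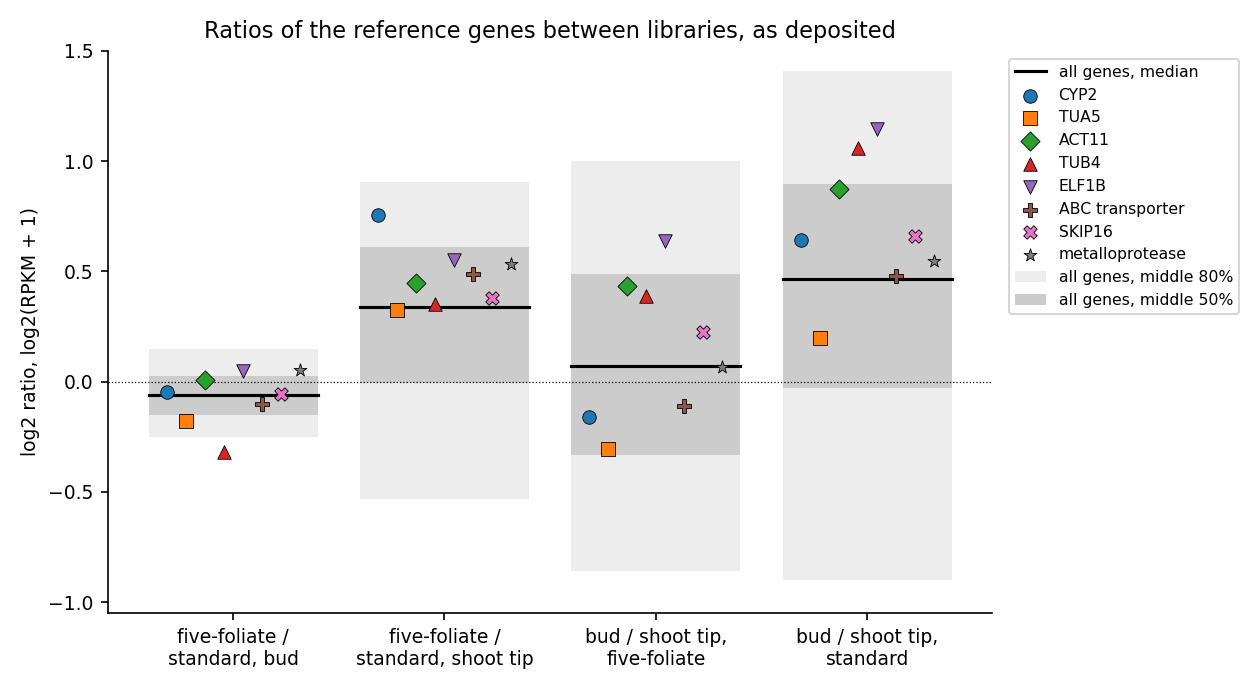
Log2 ratios on the log2(RPKM + 1) scale (vertical axis) of the 8 reference genes in the 4 comparisons, with the middle 80% and 50% of all genes (light and dark grey) and their median (black line). The points spread over 0.37 and 0.43 in the genotype comparisons of bud and shoot tip, and over 0.95 in both tissue comparisons.

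Between tissues the references disagreed with each other more. In the five-foliate line 5 of the 8 references were higher and 3 lower in the bud than in the shoot tip, where 54.7% of all genes were higher. ELF1B had 1.57 times its shoot tip level in the bud (interval 1.52 to 1.63). ACT11 was 1.35-fold higher in the bud (1.33 to 1.38) and TUB4 1.31-fold higher (1.29 to 1.33). TUA5 had 0.807 times the shoot tip level (0.794 to 0.8199), CYP2 0.893 times (0.880 to 0.907) and the ABC transporter 0.922 times (0.886 to 0.960). The median log2 ratio was 0.14 for the 8 genes and 0.07 for all 39042 genes. Centring turned the sign of the metalloprotease alone, from 0.06 to -0.01. None of the 8 was 2-fold different, against 17.9% of all genes, and ELF1B alone was 1.5-fold higher, as were 21.1% of all genes.

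In the standard line all 8 genes were higher in the bud than in the shoot tip, as were 74.0% of 39343 genes. ELF1B was 2.27-fold higher (interval 2.17 to 2.36) and TUB4 2.10-fold higher (2.06 to 2.13), and these 2 of the 8 passed the 2-fold threshold, which 20.7% of all genes passed in that direction and 29.7% in either. At 1.5-fold on the log2(RPKM + 1) scale, 5 of the 8 were higher, as were 42.2% of all genes. The metalloprotease, 1.54-fold higher in RPKM, was not among them with a log2 ratio of 0.55. ACT11 was 1.84-fold higher (1.80 to 1.88), and TUA5 was the nearest to no difference at 1.15-fold (1.13 to 1.17). The median log2 ratio was 0.65, against 0.47 over all genes. After centring 0 of 8 were 2-fold different, against 23.7% of all genes, ELF1B (0.68) and TUB4 (0.59) remained the highest, and TUA5 turned to -0.27. This comparison and the genotype comparison of the shoot tip both use the standard shoot tip library, so their ratios are not independent.

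A linear model over the 4 libraries with genotype and tissue as terms (limma on log2(RPKM + 1), two-sided, Benjamini-Hochberg adjustment over 34421 genes) called 0 of the 8 genes for genotype, where 0.41% of all genes were called. None of the 8 had an unadjusted p under 0.05 for genotype, against 3.74% of all genes. CYP2 had the highest fitted genotype ratio at 0.36 ± 0.376 (log2, SE; limma adjusted p = 0.999969) and TUB4 the lowest at 0.02. For tissue it called 0 of 8, against 18.1% of all genes, and 1 of 8 had an unadjusted p under 0.05, against 28.1% of all genes. That gene was ELF1B, with a fitted log2 ratio of bud over shoot tip of 0.89 ± 0.376 (limma adjusted p = 0.0847). With a pseudocount of 5 the tissue term called 2 of 8 and 16.8% of all genes. With values centred it called 0 of 8 and 5.82% of all genes, and with upper-quartile scaling 0 of 8 and 0% of all genes. The model had 1 residual degree of freedom and, as deposited, gave every gene the same SE. That residual is how far the genotype ratio differed between bud and shoot tip. The SEs and p-values therefore do not measure a spread between plants. With values centred, the SEs of the 8 genes ran from 0.179 to 0.209. As deposited, the smallest log2 ratio the model called was 1.40 for genotype and 0.98 for tissue, and no fitted difference of the 8 genes was as large.

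Steadiness was measured as the SD of the log2 level over the 4 libraries. As deposited, it ran from 0.15 (TUA5) through 0.23 (ABC transporter), 0.28 (metalloprotease), 0.30 (SKIP16), 0.34 (CYP2), 0.42 (ACT11) and 0.46 (TUB4) to 0.56 (ELF1B). The median of the 8 was 0.32, against 0.40 over the 19569 genes with a mean of at least 5 RPKM. Among genes within 2-fold of its own mean level, TUA5 was exceeded in steadiness by 2.56% of 900 genes and ELF1B by 59.7% of 3926. ACT11 and TUB4 stood near the middle of their classes, with 43.8% of 917 and 46.8% of 1011 genes steadier.

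Centring each library on the median of all genes changed the order. The 3 protein turnover and transport genes became the steadiest, with SDs of 0.08 for the ABC transporter, 0.09 for the metalloprotease and 0.10 for SKIP16, and 5.61%, 8.88% and 10.02% of genes of like level were steadier. CYP2 followed at 0.17. TUA5 was the only one of the 8 whose SD was larger after centring, at 0.19, and it was then exceeded by 22.2% of genes of like level. ACT11 (0.23), TUB4 (0.29) and ELF1B (0.37) remained the least steady. The median of the 8 was 0.18, against 0.31 over genes at a mean of 5 RPKM. With the standard shoot tip left out, the deposited median SD of the 8 was 0.15, against 0.247 over genes at a mean of 5 RPKM. It was 0.03 for the metalloprotease, 0.06 for the ABC transporter, 0.08 for CYP2, and 0.15 for SKIP16 and for TUA5. ELF1B (0.36), TUB4 (0.35) and ACT11 (0.249) stayed above the value over genes at a mean of 5 RPKM.

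**Figure D3:**
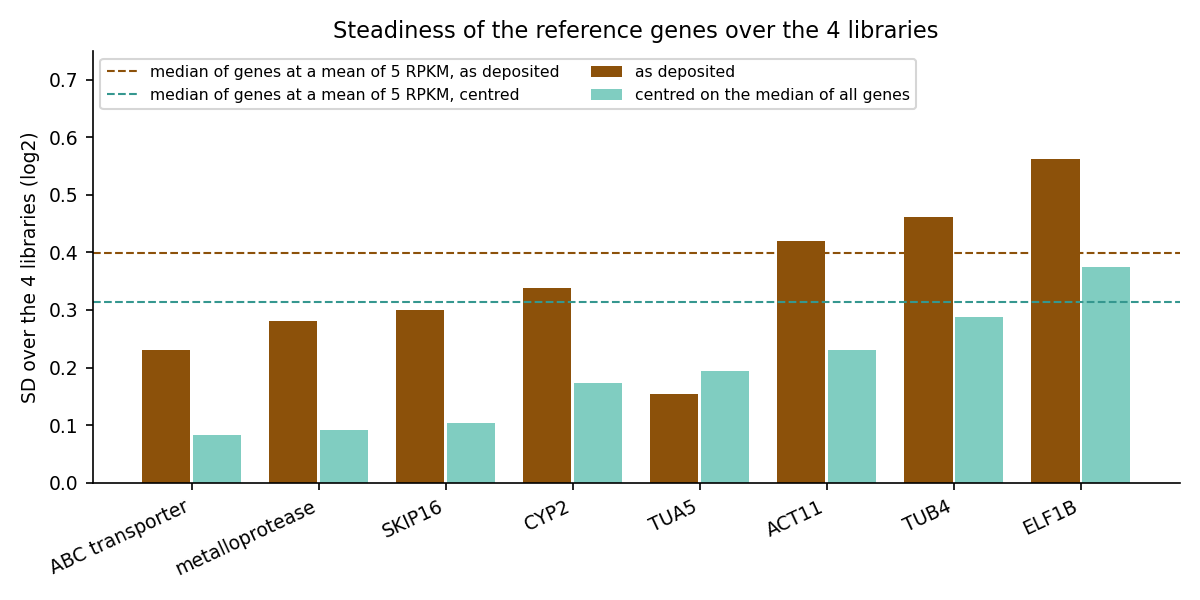
SD over the 4 libraries of the log2 level of each reference gene (bars from 0), as deposited and after centring, with the median over genes at a mean of 5 RPKM (dashed, 0.40 as deposited and 0.31 centred). Bars shrink on centring for all genes except TUA5, and ELF1B is the highest in both settings.

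Ratios between 2 references in the same library do not depend on how the library was scaled, apart from the added pseudocount, and they are what a quantitative PCR experiment sees. For each gene the SD over the libraries of its log2 ratio to each other reference was averaged, which is the M value of the geNorm procedure. M was lowest for SKIP16 (0.19) and the metalloprotease (0.20), then 0.22 for the ABC transporter, 0.23 for ACT11, 0.24 for CYP2, 0.28 for TUB4, 0.33 for ELF1B and 0.34 for TUA5. TUA5, the steadiest gene as deposited, was thus the least steady relative to the other references. Of 28 pairs, the metalloprotease and the ABC transporter kept the most constant ratio (SD 0.10) and TUA5 and ELF1B the least (SD 0.56). Stepwise removal of the gene with the highest M took out TUA5, ELF1B, TUB4, ACT11, SKIP16 and CYP2 in this order and ended with the metalloprotease and the ABC transporter. Low SDs were also found for ACT11 with TUB4 (0.14), ELF1B (0.14) and SKIP16 (0.13). The same was true of CYP2 with the metalloprotease (0.11) and the ABC transporter (0.12), and of SKIP16 with the metalloprotease (0.11). With 4 libraries these SDs are descriptions.

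**Figure D4:**
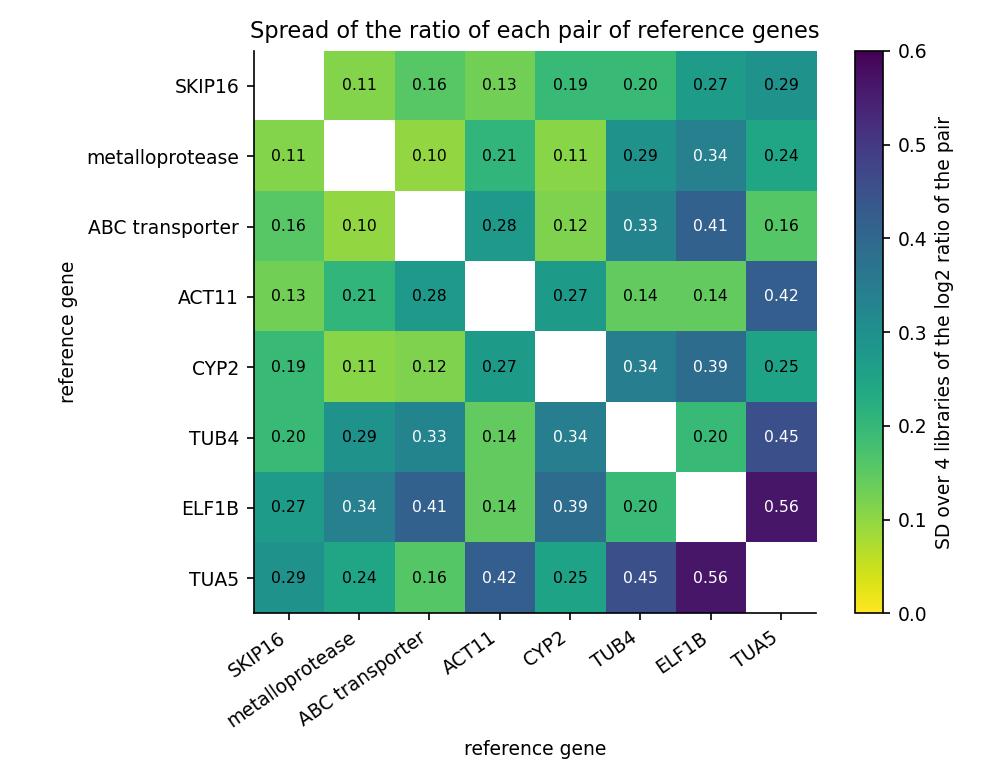
SD over the 4 libraries of the log2 ratio of each pair of reference genes (colour and printed value), ordered by M from SKIP16 to TUA5. The smallest value is 0.10 for the metalloprotease with the ABC transporter and the largest 0.56 for TUA5 with ELF1B.

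The mean log2 level of the 8 genes can stand for a library factor. Relative to its own mean over libraries it was 0.17 in the five-foliate bud, 0.25 in the standard bud, 0.03 in the five-foliate shoot tip and -0.45 in the standard shoot tip. The median of all genes moved the same way but less, with 0.10, 0.14, 0.03 and -0.31 in the same libraries. The range was 0.70 for the references and 0.45 for all genes, and 0.25 remained in the references after the shift of all genes was taken off. Outside the set, the genes whose level followed this mean most closely among 19561 genes at a mean of 5 RPKM were Glyma19g33970 (SD of the difference 0.0033) and Glyma14g16390 (0.0065). These are the smallest of 19561 values over 4 libraries, and their counting error was not computed. Whether they would follow the references in other libraries was not tested. Glyma19g33970 had 7.28 RPKM in the five-foliate bud, 7.69 RPKM in the standard bud, 6.45 RPKM in the five-foliate shoot tip and 4.34 RPKM in the standard shoot tip. SKIP16 was the reference closest to the mean of the other references (0.05), with 1.84% of genes outside the set closer.

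The choice of reference changed how the whole transcriptome divided. Relative to TUA5, 1161 genes were above and 2925 below a 2-fold difference in the five-foliate compared with the standard shoot tip. With CYP2 as the reference the counts were 368 higher and 5895 lower, and with the mean of the 8 genes 760 higher and 3712 lower. In the bud, the five-foliate library had 521 genes higher and 38 lower relative to TUB4, and 242 higher and 86 lower relative to the metalloprotease. For bud against shoot tip in the standard line, TUA5 gave 5649 higher and 4308 lower and ELF1B gave 1322 higher and 12384 lower. Averaging over 2 references narrowed the shift only in part: over the 28 pairs, the mean log2 ratio ran from 0.34 to 1.10 in that comparison, where single genes ran from 0.20 to 1.14.

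**Figure D5:**
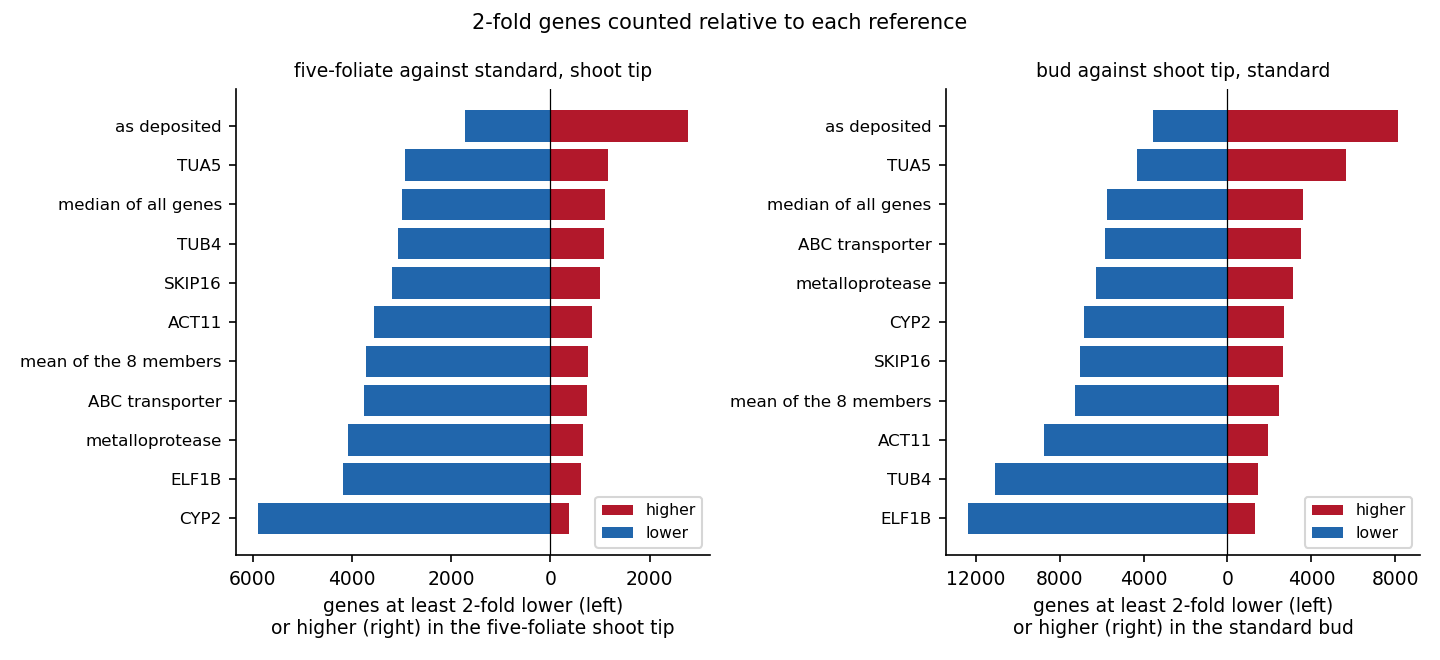
Number of genes with a 2-fold higher (right, red) or lower (left, blue) level in the five-foliate than in the standard shoot tip, and in the standard bud than in the standard shoot tip, when ratios are taken relative to each reference, to the mean of the 8 members, to the median of all genes or as deposited. In the shoot tip the count of lower genes goes up to 5895 with CYP2, and in the tissue comparison to 12384 with ELF1B.

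For five-foliate against standard in the shoot tip, alternative gene models gave similar ratios with 1 exception. The 7 models of the ABC transporter had shoot tip ratios of five-foliate to standard from 0.48 to 0.51, and the 2 models of ELF1B 0.55 and 0.56. The 2 models of the metalloprotease differed, with 0.53 for model 1 (6217 bases) and 0.29 for model 2 (5105 bases). Model 2 had 5.08 RPKM in the five-foliate bud, 4.45 RPKM in the standard bud, 4.22 RPKM in the five-foliate shoot tip and 3.27 RPKM in the standard shoot tip, below model 1 in each library. For bud against shoot tip in the standard line, models ran from 0.48 to 0.55 for the ABC transporter and from 1.07 to 1.14 for ELF1B. Those of the metalloprotease ran from 0.35 to 0.55. The other 5 genes had 1 model each. No gene of the table shared an identical set of reads with any of the 8. Actins, tubulins, cyclophilins and elongation factors have near-identical copies in soybean, and the counting of reads that match several copies is not given in the sources used here, so the levels of ACT11, TUA5, TUB4, CYP2 and ELF1B are uncertain by the reads such copies share.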

How the data were processed

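The authors deposited RPKM values in 2 tables, 1 per tissue, for the same 78773 gene models. Reads were matched with Bowtie, per the submitters' processing notes, whose version is not stated. Not given in the sources used here are the genome build, the annotation and the counting of reads that match several models. Empty rows (708957) and empty columns (7) of the bud table were dropped. Each gene was represented by its model of highest mean RPKM. Whole reads were recovered by finding library totals and model lengths that made the values whole within 0.0005 reads, which succeeded for 99.9856% of 62593 models with 4 values above 0 and for 0% of 3000 models with randomly shifted values. Counts of all genes used those reaching 1 RPKM in 1 or both of the libraries compared, and the linear model those reaching it in both tissues. Centring took off the median over these genes. The linear model was fitted in R 4.3.3 with limma 3.58.1 (empirical Bayes, threshold 0.05). It was also run on simulated reads that had no tissue effect and no shift between libraries. That run therefore does not show how the model behaves on these libraries. SciPy 1.17.1, pandas 2.3.3, matplotlib 3.10.9 and numpy 2.4.6 were used under Python 3.11.15.

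All 8 genes were named by the rule. Outside them, the rule named the 2 genes at a mean of at least 5 RPKM whose level stayed closest to the mean of the 8. The genes, lists and measures were chosen with earlier results of these data known. Alternatives were a filter of 5 RPKM or none, pseudocounts of 0.1 and 5, the first model or the sum over models, centring, upper-quartile scaling, thresholds of 1.5-fold and 3-fold, omission of each library, and other limma settings. Counts relative to each reference were added after the data were seen. The title numbers follow the tissue, so tissue took the place of a pairing term.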

Additional observations from a re-analysis of the deposited data

Results flagged for a closer look

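For 4 references the level was lower in the five-foliate than in the standard bud and higher in the five-foliate than in the standard shoot tip, with counting intervals that excluded a fold of 1 in both tissues. With 1 library per group, this difference between tissues was not tested. The log2 ratio of five-foliate to standard in the bud minus that in the shoot tip was -0.80 for CYP2, -0.67 for TUB4, -0.59 for the ABC transporter and -0.50 for TUA5. The medians of all genes differed by -0.40 in the same way. Of the genes passing the filter, 31.1% were higher in the five-foliate than in the standard bud, and 74.8% in the shoot tip. The share of all genes that meet the rule used for the 4 references was not counted. With ratios centred in each tissue, the difference was -0.40 for CYP2, -0.27 for TUB4, -0.19 for the ABC transporter and -0.10 for TUA5. The centred ratio of five-foliate to standard was 0.02 in the bud and 0.42 in the shoot tip for CYP2, and -0.12 and -0.02 for TUA5. It was -0.04 in the bud for the ABC transporter and 0.01 in the shoot tip for TUB4. For CYP2 and the ABC transporter in the bud, the counting interval includes the median of all genes. The same holds for TUA5 and TUB4 in the shoot tip, so these directions are within counting error. After centring, none of the 4 references therefore kept opposite directions beyond counting error in both tissues.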

How the results depend on the processing

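The count of references at least 2-fold different between standard bud and standard shoot tip was 2 as deposited, 0 centred, 0 with upper-quartile scaling, 0 at 3-fold and 5 at 1.5-fold, all on the log2(RPKM + 1) scale. At 1.5-fold on that scale, 1 reference differed between genotypes in the shoot tip and 1 between tissues in the five-foliate line, against 0 at 2-fold. The median SD of the references, 0.32 as deposited, was 0.18 centred and 0.16 with upper-quartile scaling. The range of their library factors, 0.70 as deposited, was 0.25 centred and 0.26 with upper-quartile scaling. Both scalings take off a shift between libraries by construction. Leaving out 1 library at a time gave a median SD from 0.15 to 0.37, a range of factors from 0.22 to 0.70 and a median M from 0.22 to 0.23. The lowest SD and the lowest range came without the standard shoot tip. In limma the tissue term called 2 references and 16.8% of all genes with a pseudocount of 5, and the cause was not tested. On centring limma called 0 references, with 5.82% of all genes called for tissue and 0% for genotype. With upper-quartile scaling or no filter it called 0% of all genes for either term, and so no reference. With no replicate block (tissue or genotype left out) limma called 0 references for genotype, where it called 0 of 34421 genes (109 at an unadjusted p under 0.05), and 0 for tissue, where it called 13.0% of them. No paired analysis was possible because the 2 numbers in the titles are the 2 tissues. A further 79 alternative values differed from the reported ones by less than 1.5 times, among them median SDs that a filter could not change. Of 256 alternative ratios of single genes, 68 moved by more than the counting interval allows, 30 of them on centring and 23 on upper-quartile scaling. The 256 include 32 ratios with no filter and 32 with a filter of 5 RPKM. These could not move, since a filter leaves the ratio of a gene unchanged. Ratios of genes with 1 model could not move on a change of model either, so the share that moved says little about robustness. Depth did not limit the levels of the models that represent the 8 genes: the smallest number of reads behind such a value was 3553. Model 2 of the metalloprotease had fewer reads.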
